A study of Homo sapiens with 6 samples.

Results

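The regions described here are short stretches of accessible chromatin that were called in all 3 ZNF436 knockdown libraries, in none of the 3 control libraries, and 10 kb or less from a stretch called in all 6 libraries. They were chosen by the presence and absence of called peaks in the 6 lists themselves, so their absence from control is the rule and not a finding. Overlapping peaks (1 bp or more) of all libraries were merged into regions on chromosomes 1 to 22, and distances were counted as the bases between region edges. Of 153162 such regions, 27889 were called in all 6 libraries and are named shared regions below. The knockdown-only pattern held for 11831 regions, which is 7.72% of all regions, and 3477 of these lay within 10 kb of a shared region. These 3477 are the members, and the other 8354 knockdown-only regions are called distant.

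All libraries came from ventricular-like cardiomyocytes that were differentiated with a commercial kit from H9, a human embryonic stem cell line, and collected at day 15. The controls and the cells with knockdown of ZNF436 went through the same differentiation, and per the labels the 3 replicates of each condition were separate differentiations with 50000 cells each. The labels and protocols used here do not say how the knockdown was made or what the control cells received. Accessibility was read by ATAC-seq, in which the transposase Tn5 inserts adapters into open DNA. Positions are on hg19. Gene annotation and sequence of that build were not used here, so regions are given by position, and neither the cell type markers nor ZNF436 itself were checked.

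ZNF436 belongs to the KRAB zinc finger proteins, a large family that binds DNA through arrays of zinc fingers. The KRAB domain of many members recruits the corepressor TRIM28 and histone methyltransferases, which lay down H3K9me3 and keep bound elements, often derived from transposons, closed. Accessible sites along a chromosome differ in kind. Promoters tend to be open in many cell types and to give strong, wide ATAC-seq peaks, whereas distal elements such as enhancers are narrower, weaker and more dependent on cell state. Regulatory elements of a gene often lie within a few kilobases of each other.

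The lists differed in length, which bears on each count below. The control lists held 50719 to 68342 peaks and the knockdown lists 87871 to 115864, and the sequencing depth behind them is unknown. Control replicate 3 had the longest control list and knockdown replicate 3 the shortest knockdown list. Without control replicate 3 there were 6247 members, and without knockdown replicate 3 there were 6782, against 4331 to 4980 when 1 of the other libraries was left out. Leaving out a library also loosens the rule, since fewer calls or absences are needed, so counts above 3477 are built in. A region missing from a control list was not called there, which does not show that it was closed.

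Of all call patterns, the knockdown-only pattern had the lowest share of regions close to a shared region, although its interval overlapped that of the next pattern. The share within 10 kb was 29.4% for regions in 3 knockdown and 0 control libraries (exact binomial 95% interval 28.6 to 30.2%, counting error only). It was 30.3% (29.6 to 30.9%) for regions in 2 knockdown and 0 control libraries, and 33.2% and 36.7% for those called in all 3 knockdown libraries and in 1 or 2 control libraries. Regions called in 3 control and 0 knockdown libraries stood at 38.1% (75 of 197, 31.3 to 45.2%), and shared regions themselves had another shared region within 10 kb in 39.1% of cases. Across the 14 other patterns the share ran from 30.3 to 51.2%. The order of the 15 patterns is a description of these 6 lists, and neighbouring regions are not independent of each other. When each list was reduced to its 50719 strongest peaks, the knockdown-only pattern again had the lowest share, 23.7% (603 of 2546, interval 22.04 to 25.4%). Regions called in 1 or 2 knockdown and 0 control libraries followed with 24.8% each, within that interval.

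**Figure D1:**
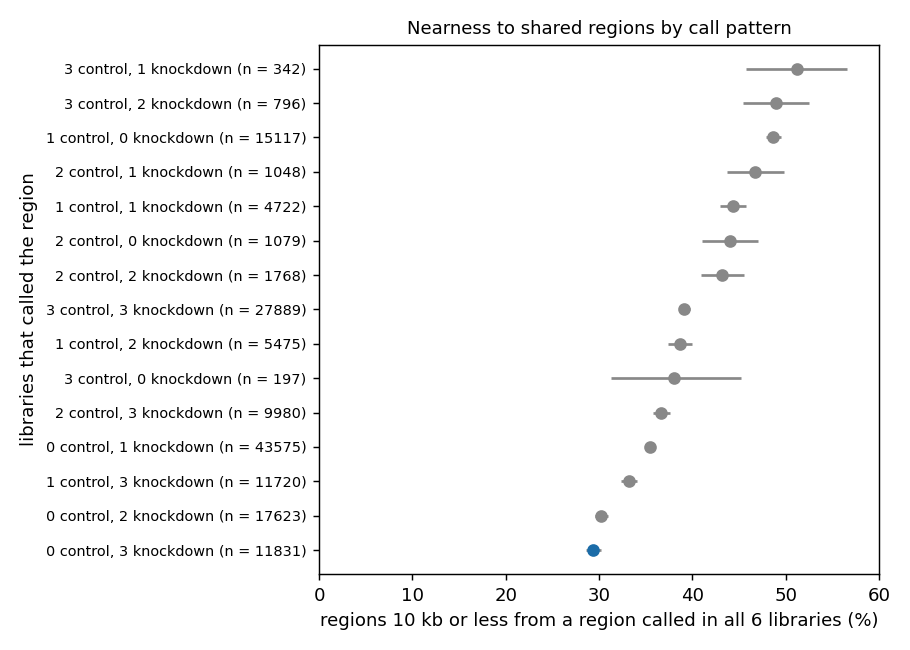
Share of regions 10 kb or less from a region called in all 6 libraries (horizontal axis, percent), for each combination of control and knockdown libraries that called the region (vertical axis, with the number of regions). Points are shares and bars exact 95% binomial intervals; the knockdown-only pattern, in blue, sits lowest at 29.4%.

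Within the 10 kb, the members were most frequent beside the shared region and thinned out with distance. The median distance was 3766 bp, with quartiles of 1425 and 6690 bp. There were 670 knockdown-only regions in the first kilobase, 437 in the second, 248 in the last kilobase inside the limit and 210 in the kilobase just outside it. The limit of 10 kb thus falls on a gradual slope. Of the members, 19.3% lay under 1 kb from the shared region, against 21.7% of near regions called in 2 knockdown and 0 control libraries, 23.4% of near regions called in 3 knockdown and 1 control library, 25.8% of those in 3 knockdown and 2 control libraries, and 38.7% of the 75 near regions called in 3 control and 0 knockdown libraries. With lists of equal length the first pair stood at 13.6% and 13.1%, so members were then not the lower of these. The shared neighbour lay at lower coordinates for 1750 members and at higher coordinates for 1727. A shared region stood within 10 kb on both sides of 492 members (14.2%). In 2050 cases (59.0%) no other called region separated the member from its shared neighbour, in 865 there was 1 such region, and in 562 there were 2 or more.

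**Figure D2:**
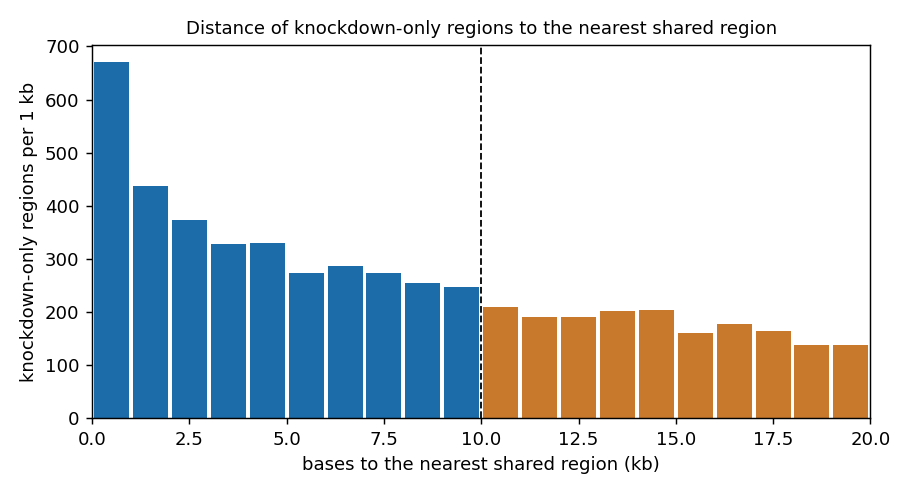
Number of knockdown-only regions per 1 kb of distance (vertical axis) against the bases to the nearest shared region (horizontal axis, kb). Blue bars are the members and orange bars regions beyond the limit of 10 kb (dashed line); the bars fall from 670 in the first kilobase to 248 before the limit and 210 after it.

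The 3 members closest to a shared region were almost joined to it. The gap was 1 bp at chr5:133513196-133513485, 2 bp at chr1:114522681-114523042 and 7 bp at chr3:71178923-71179407. All 3 were weak in at least 1 list. The score percentiles of the chromosome 1 member, that is the share of a library's peaks ranked under it, were 16.6, 8.49 and 0.882 in knockdown replicates 1, 2 and 3. At the other end, chr10:73006459-73007070 lay exactly 10000 bp away, with percentiles of 58.1, 31.9 and 37.1. Just inside the limit were also chr21:35962922-35963210 at 9996 bp and chr22:20129283-20129609 at 9994 bp. The first regions left out were chr2:235421828-235422352 at 10004 bp, chr12:27961915-27962286 at 10008 bp and chr20:10640820-10641316 at 10015 bp. Their lowest percentiles, 29.3, 17.8 and 10.6, were set beside 31.9, 42.3 and 20.5 for the 3 just inside, and the widths of both sets ran from 289 to 612 bp.

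Members were narrow compared with shared regions. Their median width was 371 bp (quartiles 286 and 489 bp, range 139 to 2101 bp), against 346 bp for distant knockdown-only regions and 875 bp for shared regions. In 3337 of 3477 members (96.0%) each knockdown library contributed a single peak. The strongest peak of a member had a median width of 275, 240 and 229 bp in knockdown replicates 1, 2 and 3, and that of a distant region 270, 234 and 218 bp. The difference was 7.33 ± 3.21 bp (SD, n = 3 libraries) and positive in 3 of 3 libraries. It was 26.83 bp in the stronger 0.5 of each list, 17.33 bp with lists of equal length and 35.33 bp when a library had to cover 50% of a region, so its size depended on these choices. The exact paired permutation test over libraries, two-sided, gave p = 0.25 (adjusted over 2 measures p = 0.25), the smallest value that 3 libraries allow, so it could not pass 0.05.

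By score the members belonged to the middle and lower part of each knockdown list. The median percentile was 48.4, 41.6 and 31.2 in replicates 1, 2 and 3, with quartiles of 34.8 and 60.7, 26.4 and 55.6, and 17.8 and 46.9. There were 445 members (12.8%) above the median of all 3 lists and 12 (0.345%) above percentile 75 of all 3, whereas 1520 (43.7%) were under the median in all 3. For distant regions these shares were 15.9%, 0.455% and 35.8%. Distant regions had medians of 52.0, 45.7 and 37.1. Their lower quartiles were 34.8, 26.4 and 24.7, the same as those of the members in replicates 1 and 2. Many peaks had tied scores. The median scores were 102, 91 and 66 in members and 113, 101 and 76 in distant regions, so the percentiles moved in steps. The difference between members and distant regions was -4.54 ± 1.21 points (SD, n = 3 libraries), negative in 3 of 3 libraries, again with the smallest possible p (exact paired permutation test, two-sided, p = 0.25, adjusted p = 0.25). The difference was 0 with lists of equal length, and it turned to 0.919 points, higher in members, when a library had to cover 50% of a region to count as calling it. It was exactly -4.538 again with limits of 5 kb and 20 kb and with peaks up to 100 bp apart merged. Medians on tied scores can stay at the same step, so these repeats are not separate support. Against their own shared neighbour, 3082 members (88.6%) had the lower score in all 3 knockdown lists and 45 (1.29%) the higher score in all 3. This was not particular to members. Of 8354 distant regions, 7240 (86.7%) scored lower than their nearest shared region in all 3 lists and 124 (1.48%) higher.

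**Figure D3:**
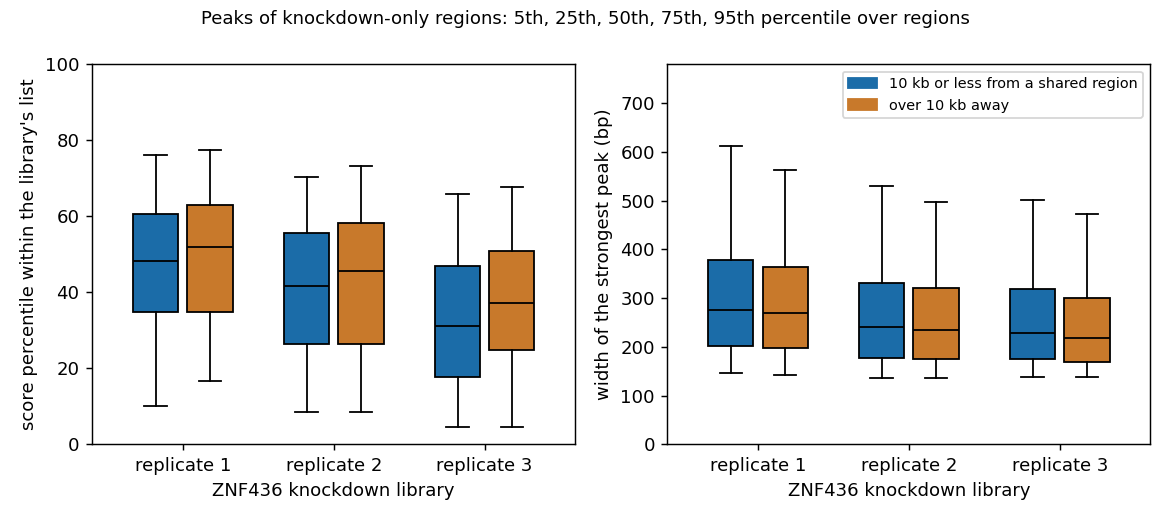
Score percentile within the list (left) and width in bp of the strongest peak (right) in each knockdown library, for members (blue) and distant knockdown-only regions (orange). Boxes span the quartiles around the median and whiskers the 5th to 95th percentile over regions; in each library the score median of the members is the lower, with 48.4, 41.6 and 31.2 against 52.0, 45.7 and 37.1.

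The 3 lists ranked the members only partly alike. Spearman's rho between the percentiles of the 3477 members was 0.618 for replicates 1 and 2, 0.485 for 1 and 3, and 0.448 for 2 and 3. These are descriptions over regions that all had to be called in the same 3 libraries. The median gap between a member's highest and lowest percentile was 23.5 points. The score that ends the 50719 strongest peaks of a list was reached or passed by 1361, 1336 and 1335 members in the 3 libraries. It was reached or passed in all 3 libraries at once by 617 members (17.7%), against 1816 of 8354 distant regions (21.7%). Peaks tied at that score may not all have stayed in the reduced list.

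The member with the highest lowest percentile over the 3 lists was chr2:168366949-168367218, a 270 bp site 361 bp from its shared neighbour. Its scores, which are the peak caller's own values in the authors' lists, were 468, 410 and 297 in knockdown replicates 1, 2 and 3, at percentiles 87.8, 84.9 and 81.0. It led none of the lists, where the highest percentiles of any member were 91.8, 88.5 and 85.3. The neighbour, chr2:168366159-168366587, was itself among the weak shared regions of control. Its rank among the shared regions of a library, from 0 for the weakest to 100 for the strongest, was 5.04, 7.73 and 5.05 in control and 32.9, 16.4 and 16.8 in knockdown, so the groups did not overlap.

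Other well ranked members had neighbours of every kind. The 588 bp site chr1:109798645-109799232 (scores 367, 302 and 297) lay 6128 bp from a shared region whose ranks overlapped between the groups. So did the 806 bp site chr12:99458172-99458977 (scores 325, 302 and 325), 4031 bp from its neighbour. In contrast, chr14:77781548-77782142 (scores 271, 302 and 269) and chr18:45452501-45453186 (scores 353, 276 and 256) stood 4214 and 2941 bp from strong shared regions of 2035 and 2583 bp. The chromosome 14 neighbour ranked 96.3, 92.1 and 95.8 in control and 91.5, 96.3 and 92.0 in knockdown, and that on chromosome 18 ranked 86.9, 90.0 and 74.9 in control and 76.8, 82.9 and 77.3 in knockdown. Both pairs of groups overlapped.

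The next members by this order were chr1:210757813-210758160, chr15:63785652-63786171 and chr8:30181891-30182275, 1409, 8650 and 4117 bp from a shared region. The chromosome 15 member went with a neighbour of lower rank in knockdown, chr15:63794822-63797996. Its ranks were 60.3, 78.8 and 54.7 in control and 46.1, 47.3 and 44.0 in knockdown, and the groups did not overlap. For the chromosome 8 member, the neighbour's rank was 32.2, 18.6 and 26.9 in control and 63.5, 65.4 and 31.5 in knockdown, with replicate 3 just under the highest control value.

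The widest members were broad but not strong. The widest, chr17:57919806-57921906, covered 2101 bp, 3903 bp from a shared region ranked 92.8 to 97.0 in all 6 libraries. It was 1 peak of 2055 bp in knockdown replicate 1 and 2 peaks in each of the other libraries, with scores of 135, 190 and 66. Next came chr14:23862416-23864455 with 2040 bp, made of 3, 2 and 1 peaks in replicates 1, 2 and 3, with scores of 72, 54 and 76. Its shared neighbour, chr14:23867694-23871489, was 3796 bp wide yet weak, with ranks of 2.34, 7.73 and 11.4 in control and 9.18, 5.62 and 31.5 in knockdown. The other 3 were chr1:2475668-2477199 (1532 bp), chr3:37499029-37500391 (1363 bp) and chr10:3822457-3823784 (1328 bp). The lowest percentile of these 5 members ran from 4.44 to 37.1, so none was in the upper part of all its lists.

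The members had 3188 different shared regions as nearest neighbours. To see where such neighbours stand, the 4153 shared regions with a knockdown-only region within 10 kb were compared with the 23736 that had none. Their median rank was 44.7, 46.5 and 48.6 in control replicates 1, 2 and 3 and 49.6, 49.0 and 48.6 in knockdown replicates 1, 2 and 3. For the other shared regions it was 51.8, 51.0, 51.8, 49.6, 50.6 and 50.9 in the same order. The mean difference was -3.10 ± 2.43 points (SD, n = 6 libraries), negative in 5 libraries and 0 in knockdown replicate 1. By library it was -7.01, -4.45 and -3.18 points in control and 0, -1.68 and -2.27 in knockdown. The exact paired permutation test over libraries, two-sided, gave p = 0.0625 and p = 0.0938 adjusted over 3 measures, which does not pass 0.05. These shared regions were picked through regions chosen on the knockdown against control contrast, and the test pools both conditions. Its p-value is thus not free of the rule, and no conclusion is drawn from it.

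The same shared regions also carried fewer accessible bases. The median bases covered by peaks were 414, 406 and 500 in control and 711, 675 and 646 in knockdown beside a knockdown-only region. They were 458, 456 and 535 in control and 733, 695 and 662 in knockdown elsewhere. The difference of -31.2 ± 13.9 bp (SD, n = 6) had the same sign in 6 of 6 libraries (exact paired permutation test, two-sided, p = 0.031, the smallest possible, adjusted p = 0.0938), which again does not pass 0.05 after adjustment. The difference was -44, -50 and -35 bp in control and -22, -20 and -16 bp in knockdown, and its test has the same limit as that of rank. The third measure, the median number of peaks in a shared region, was 1 in each set and library. In the 7 alternatives that kept all 6 libraries, rank and covered bases both passed with an adjusted p of 0.0469 by the same exact test. For covered bases the unadjusted p of this test was 0.031 throughout. Its adjusted p changed because the unadjusted p of rank went from 0.0625 to 0.031. The call for rank thus depended on how lists and regions were defined, and that for covered bases on the adjustment.

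The neighbouring shared regions had slightly higher ranks in knockdown than in control. Because the members were chosen on the same contrast, this is given without a test. The mean rank over the 3 knockdown libraries minus that over the 3 control libraries had a median of 1.11 points among the 3188 neighbours (quartiles -6.15 and 10.3). Among shared regions with no knockdown-only region within 10 kb it was -0.314 (quartiles -7.46 and 7.04). Taken library by library against the control mean, the neighbours' median was 1.18, 0.839 and 1.34 in knockdown replicates 1, 2 and 3, and that of the others -0.301, -0.170 and -0.336. Each knockdown library was on the same side. The shift is small beside the range of single neighbours, which ran from -51.2 to 55.7 points.

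Counted by region, 432 of 3188 neighbours (13.6%) had all knockdown ranks above all control ranks, where 11.3% of all shared regions did. All knockdown ranks were below all control ranks in 318 neighbours (9.97%), where 12.4% of all shared regions did. Both shares are near those of all shared regions. With 1 library left out, 649 to 1267 neighbours were above and 549 to 948 below. Fewer libraries then had to be separate and there were more members, so these higher counts are built in. Without control replicate 3 the shares were 23.4% of neighbours against 19.5% of all shared regions above, and 17.5% against 20.7% below.

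**Figure D4:**
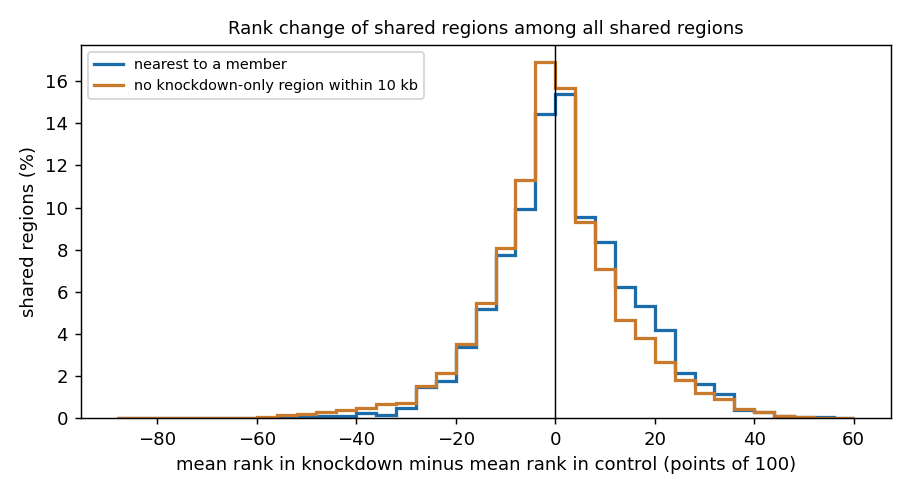
Distribution of the rank change of shared regions (horizontal axis, mean knockdown rank minus mean control rank, in points of 100), as percent of each set (vertical axis). The blue outline is the 3188 neighbours of members and the orange outline the 23736 shared regions with no knockdown-only region within 10 kb; the outlines largely overlap, with the blue one slightly to the right and medians of 1.11 and -0.314.

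The neighbour's rank change is given by distance without a test. The median was -0.114 for the 145 neighbours at under 200 bp, 0.681 at 200 to 499 bp, 1.56 at 500 to 999 bp, 1.74 at 1000 to 1999 bp, 1.28 at 2000 to 4999 bp and 1.48 at 5000 to 10000 bp. The closest neighbours were the only class under 0. They were also the widest, with a median of 1024 bp against 828 bp in the farthest class. The members themselves changed along the same axis. Those at under 200 bp had a median width of 461 bp and a median percentile of 31.9, and those at 5000 to 10000 bp had 358.5 bp and 42.3.

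The largest separate differences among neighbours went in both directions. At chr5:159943568-159944463 the rank was 36.7, 7.73 and 30.9 in control and 80.6, 77.0 and 84.8 in knockdown, a difference of 55.7 points. The knockdown-only member beside it, chr5:159935918-159936154, was 7413 bp away. At chr3:69349248-69349997 the control ranks of 27.3, 30.9 and 34.7 were closer together, and those in knockdown were 85.9, 80.8 and 83.3. Its member lay 9081 bp off. The others with the highest gain were chr4:187869427-187870368 (51.3 points), chr4:62411428-62412069 (49.7 points, with 2 members) and chr10:18479482-18480231 (47.1 points). In these 3 the control libraries themselves differed, with an SD of 28.9, 23.7 and 22.1 points.

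Of the 5 neighbours with the most negative rank changes and separate groups, chr1:80118044-80118566 and chr2:151834625-151835091 had the smallest SD within each group. The first ranked 57.7, 64.4 and 60.01 in control and 9.18, 14.5 and 21.6 in knockdown, with the member chr1:80112693-80112958 at 5085 bp. The second ranked 57.7, 55.0 and 48.6 in control and 4.35, 8.14 and 12.2 in knockdown, with the member chr2:151838365-151838730 at 3273 bp. At these loci the shared site was thus weaker, relative to other shared sites, where a site called only in knockdown stood nearby. The largest differences were -51.2 points at chr1:145022331-145024962, -51.2 at chr1:223195789-223196956 and -50.5 at chr4:190816648-190818025. The second of these rested on control replicates 1 and 2, which ranked it 80.6 and 80.2, whereas control replicate 3 ranked it 19.0.

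Members were mostly single additions. When each was assigned to its nearest shared region, 2921 shared regions had 1 member, 245 had 2 and 22 had 3. The 267 loci with 2 or more members together held 556 of the 3477. Among these 267 shared regions the median rank change was 2.09 points, against 1.02 for those with 1 member. The share with all knockdown ranks above control was 12.7% and 13.6%, against 11.3% of all shared regions. All were below control in 11.2% and 9.86%, against 12.4% of all shared regions. By these counts, loci with 2 or more members did not stand further above control than those with 1. Runs in which members followed each other at gaps of 10 kb or less reached 4 members in 3 places, chr7:35295788-35303372, chr14:55138933-55148728 and chr18:12408424-12429448. The number of loci with 2 or more members was 7 with lists of equal length and 396 to 912 with 1 library left out. The latter counts go with the looser rule that applies when a library is missing.

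Among the 22 loci with 3 members, the one with the most member bases was chr6:5214821-5215372, a shared region of 552 bp whose members covered 1881 bp. Its ranks were 84.5, 77.3 and 87.6 in control and 82.7, 87.8 and 92.0 in knockdown, and the groups overlapped. A member of 385 bp stood 274 bp from it, and a pair of 778 and 718 bp lay side by side 7845 and 6961 bp away. The scores of the closest were 92, 155 and 57 in knockdown replicates 1, 2 and 3. All 3 members lay at lower coordinates than this shared region.

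At chr3:183145640-183146966 the shared region itself also ranked higher. Its ranks were 13.0, 3.804 and 15.1 in control and 40.5, 34.1 and 31.5 in knockdown, with no overlap. All 3 members followed it at higher coordinates, at 1465, 4951 and 6051 bp. The middle one, chr3:183151918-183152702, was even over the lists, with percentiles of 67.2, 67.1 and 67.8. At chr1:15255921-15257016 the ranks were 27.3, 36.5 and 38.5 in control and 53.1, 52.3 and 55.1 in knockdown. The groups did not overlap. Its peaks covered 595, 557 and 447 bp in knockdown and 618, 580 and 678 bp in control. The control bases came from separate peaks on either side of the region's centre. On the lower side, control peaks spanned -378 to -52, -355 to -36 and -414 to -146 bp from the centre in replicates 1, 2 and 3. Knockdown peaks spanned -468 to 127, -440 to 117 and -548 to -101 bp, with no separate peak on the higher side. The totals thus do not compare like peaks.

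The shared region chr2:179671214-179672984 was wider in knockdown, where peaks covered 1771, 1667 and 1594 bp against 845, 871 and 1163 bp in control. Wider coverage in knockdown was general: the medians over all shared regions were 729, 691 and 659 bp, against 451, 448 and 529 bp in control. At this locus the ranks also differed. The ranks of this shared region were 64.9, 82.7 and 93.6 in control and 90.1, 93.3 and 94.0 in knockdown. Control replicate 3 overlapped the knockdown libraries. The 3 members lay 3734 to 6939 bp away on the side of lower coordinates and were weak, with lowest percentiles of 3.40 to 17.8. Around chr5:73935164-73938344, a shared region of 3181 bp, 1 member stood at 777 bp on the higher side and the others at 566 and 7277 bp on the lower side.

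**Figure D5:**
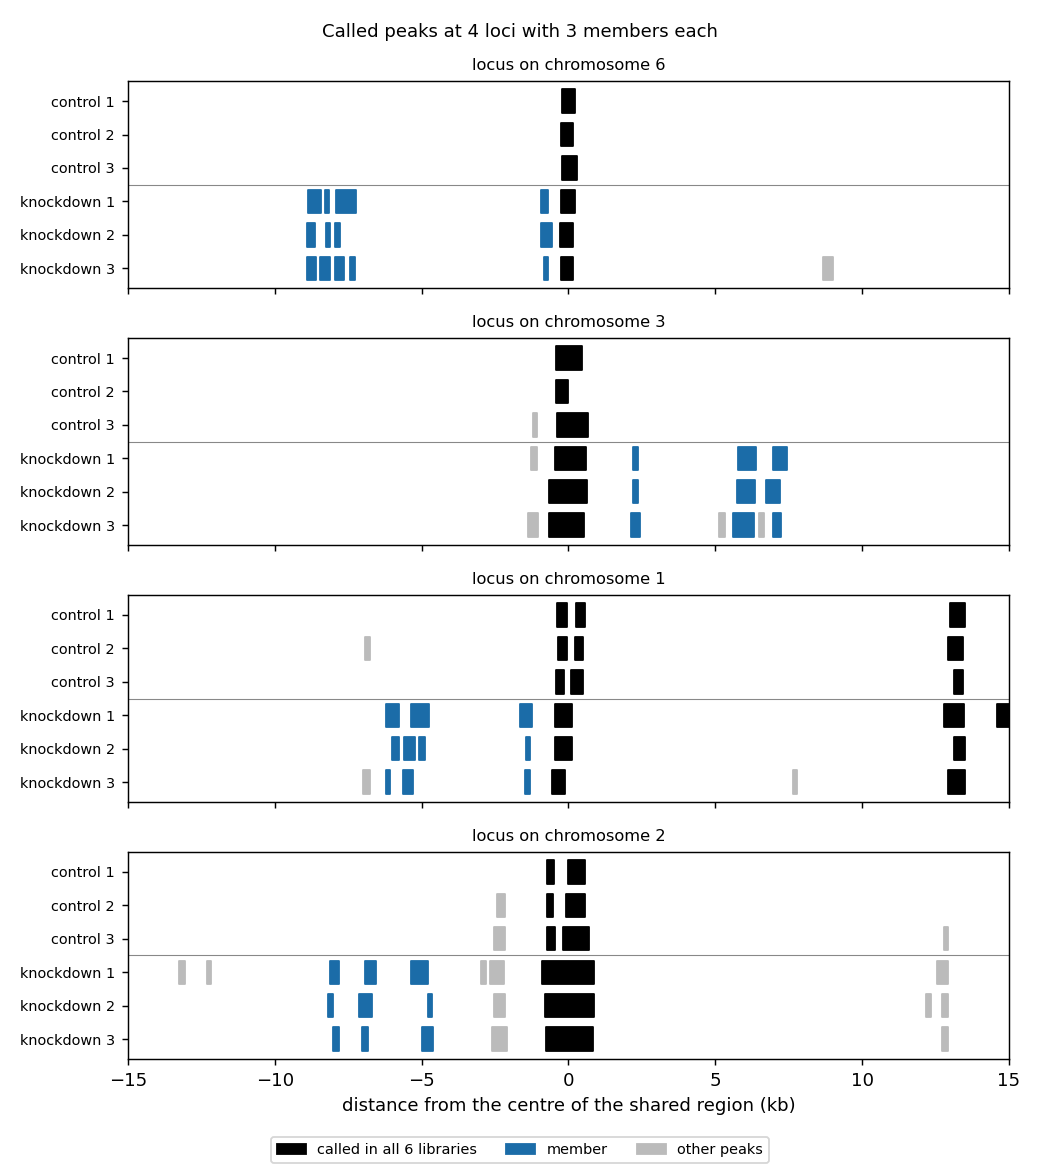
Called peaks of the 6 libraries (rows) around 4 shared regions with 3 members each, by distance in kb from the centre of the shared region (horizontal axis). Black bars are peaks of regions called in all 6 libraries, blue bars members and grey bars other peaks; blue bars appear in the 3 knockdown rows only, which is how they were chosen.

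The remaining loci of this kind that were picked by member bases were chr13:97762125-97762564, chr18:77711468-77712345 and chr3:185814005-185814564. Their rank changes were 2.72, -6.72 and 18.0 points, and the groups overlapped at all 3. The strongest member among the 24 of these 8 loci in knockdown replicate 1 was chr3:185806556-185807159, with scores of 367, 155 and 204. Of the 8 shared regions, 2 had separate groups, both with higher ranks in knockdown. Over all shared regions, 11.3% had all knockdown ranks above control and 12.4% all below. A set of 8 regions is too small to be set against these shares.

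Chromosomes dense in shared regions had a larger share of their knockdown-only regions near one. On chromosome 19, with 26.3 shared regions per Mb between its first and last called base, 129 of 218 knockdown-only regions (59.2%) were members. On chromosome 13, with 6.32 shared regions per Mb, 76 of 372 (20.4%) were. Over the 22 chromosomes, density and this share had a Spearman's rho of 0.874, a description, since a denser set of targets is nearer to any position. Counted per 100 shared regions the order was another. Chromosome 18 had 18.2 members per 100 shared regions and chromosome 15 had 16.5, against 12.5 over all chromosomes, 8.31 on chromosome 21 and 8.30 on chromosome 19.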

How the data were processed

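ATAC-seq peak lists of 6 libraries (3 control, 3 ZNF436 knockdown) were used. The score of each peak (column 5) is the peak caller's own value as deposited by the authors; the peak names carry the word MACS and the library's name. Bowtie2 2.4.5, bedtools 2.30.0 and hg19 were used, per the submitters' processing notes; caller settings, thresholds and read filters were not found in the labels or files. Scores were only ranked within a list. Python 3.11.15, pandas 2.3.3, numpy 2.4.6 and scipy 1.17.1 were used, and the scripts were tested on simulated data.

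Near and distant knockdown-only regions, and shared regions with and without a knockdown-only region within 10 kb, were compared by their medians per library, with an exact paired permutation of signs over libraries, two-sided, and Benjamini-Hochberg adjustment. Rank is the percentile of a region's best score among the shared regions of its library, ties at their middle rank. Differences between knockdown and control, the contrast that chose the members, have no test. The tests over 6 libraries compare sets of shared regions that were picked through that same contrast.

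The regions named were the 8 with the highest lowest percentile, the 5 widest, the 3 nearest, the 3 on either side of 10 kb, the 8 loci with the most members (ties by member bases), and the 5 highest and 5 lowest rank changes among neighbours with separate groups. Members and lists were chosen with earlier results of these data known. Planned checks of cell type markers and sequence features needed hg19 annotation and sequence and are not analysed here. Alternatives were other list lengths, merging, overlap, distances, ranks, a replicate block and each library left out.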

Additional observations from a re-analysis of the deposited data

Results flagged for a closer look

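Chromosome X, which the choice of members left out, also held regions of the same kind. Of 326 regions called there in 3 knockdown and 0 control libraries, 75 (23.01%) lay within 10 kb of 1 of the 777 shared regions of that chromosome. They are given because chromosome X lies outside the regions compared above. Their absence from the control lists is fixed by the way they were counted, and nothing was tested.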

How the results depend on the processing

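Depth is unknown and the control lists are shorter, so list length and condition cannot be told apart, and calls absent from control may lie under the caller's threshold. With 3 libraries no test of members could pass 0.05. Of 149 values from alternatives, 14 newly passed the threshold and 1 reversed. The tests over 3 libraries could change no call, yet their sizes varied: the width difference was 26.83 bp with the stronger 0.5 of each list, 17.33 with equal lengths and 35.33 with 50% cover, and the score percentile difference was -1.049 with the stronger 0.5, 0 with equal lengths and -1.693 with 2 of 3 libraries. The cause of these changes was not tested.

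The values are given in the order members, percent near, then neighbours above and below control, median rank change and loci with 2 or more members, where they moved. The stronger 0.5 of each list gave 1294, 19.93%, 175, 118, 0.8173 and 61. Lists of equal length gave 603, 23.68%, 90 (15.1%, against 11.2% of all shared regions), 63 (10.6%, against 11.9%), 1.482 and 7. Covering 50% of the region gave 1895 members, 12.59%, 220 above, 162 below and a rank change of 0.5326, and here the score percentile difference reversed to 0.9188. Calls in 2 of 3 knockdown libraries gave 8810 members, 943 above, 692 below, a change of 0.6756 and 1384 loci. A limit of 5 kb gave 2140 members, 18.09%, 272 above and 100 loci, and 20 kb gave 5248 members, 44.36% and 582 loci. Percentiles among all peaks of a list, which move with its length, gave 1589 above, 21 below and a change of 11.62. That rise was general. The median list percentile of all shared regions averaged 72.6 in control and 85.0 in knockdown, against 71.6 and 84.5 for neighbours. Except for equal lengths, no share over all shared regions is given here, so these counts are not read as a result about neighbours.

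Shared regions beside a knockdown-only region were picked through the contrast that chose the members, so no conclusion is drawn from the following p-values. The rank and covered-base differences of shared regions passed at an adjusted p of 0.0469 (exact permutation test) in 7 alternatives. They were -5.845 points and -59.33 bp with the stronger 0.5 of each list, -4.584 and -66.58 with equal lengths, -3.666 and -33.5 with peaks up to 100 bp apart merged, -4.179 and -44.75 with 50% cover, -3.958 and -31.67 with 2 of 3 libraries, -4.213 and -24.67 at 5 kb, and -3.077 and -27.67 at 20 kb.

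With 1 library left out, members ran from 4331 to 6782, percent near from 29.76 to 34.25, the width difference from 7.75 to 14.0 bp, the score percentile difference from -5.239 to -2.252, the rank difference from -3.963 to -2.248, covered bases from -36.6 to -14.2 bp, neighbours above from 649 to 1267 and below from 549 to 948, the median rank change from 0.6679 to 1.197, and loci from 396 to 912. The counts of members, neighbours and loci all lie above those with 6 libraries. That rise is built in, since fewer libraries must meet the rule, so these counts do not measure stability.

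With the replicate block, 789 neighbours (24.7%, where 20.2% of all shared regions did) were higher in every same-numbered pair and 555 (17.4%, against 20.8%) lower. Same-numbered libraries had correlations of their deviations of 0.028, 0.040 and 0.113, the last being the largest of any pair. Differently numbered libraries ran from -0.105 to 0.072, and control replicate 1 correlated most with knockdown replicate 2 (0.072). These small values do not settle whether the numbers pair the samples, and the main counts do not treat them as pairs.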

Other observations

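The rank change of neighbouring shared regions was also read by how strong the shared region was, a division chosen after seeing the data. From the weakest to the strongest of 4 equal classes by mean rank over the 6 libraries, the neighbours of members had median changes of -0.383, 3.27, 3.99 and 0.619 points. Other shared regions had -2.29, 0.979, -0.416 and 0.00418. The neighbours' median was the higher in each class, by most in the class just under the strongest. There, 17.7% of neighbours had all knockdown ranks above control, where 12.5% of other shared regions did. These values come from the contrast that chose the members and carry no test.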
